A study of Mus musculus with 10 samples.

Results

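The genes described here encode proteins of the contacts that hold endothelial cells together, at adherens and tight junctions or, for Pecam1, along the border between them: Cdh5, Pecam1, Cldn5, Ocln, Tjp1, Esam, F11r, Jam2 and Jam3. They were chosen by name, as the rows of the count table whose identifier maps to one of these 9 symbols, and all 9 were found among the 55385 genes of the table. All 9 were among the 17997 genes with enough reads to be tested. In RNA from sorted mouse lung endothelial cells, no junction gene passed the test between mice with and without an endothelial Cre that deletes Tnfsf10, which encodes the death ligand TRAIL. The mean level with the Cre was 0.914-fold (Ocln) to 1.08-fold (Pecam1) of that in controls, and the 2 groups overlapped for every gene.

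The study sequenced poly-adenylated RNA of sorted lung endothelial cells in 10 libraries. The Control group (5 libraries) were Tnfsf10 L/L and carried no Cre transgene (Cdh5.Cre W/W), so both Tnfsf10 alleles were flanked by loxP sites. The EC-TRAIL KO group (5 libraries) were likewise Tnfsf10 L/L and also Cdh5.Cre Tg/W, which adds a tamoxifen-inducible Cre. The strain of both groups is given as Cdh5.iCreERT2xTnfsf10Lox/Lox. The mice were 8 to 14 weeks old, and the protocol gives tamoxifen at 1 mg per mouse per day for 5 or 10 days, without saying which mice had which course or setting the controls apart. The floxed alleles were thus shared by all libraries, and the Cre transgene and the deletion differed together, so their effects cannot be told apart. The Cre is driven by the promoter of Cdh5, which is also a junction gene described here. The design text counts 4 Tg/W mice where the labels and the table hold 5, and the labels do not state that each library came from its own mouse. P-values therefore measure the spread between these libraries.

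Endothelial cells line blood vessels and control what passes between blood and tissue through the contacts between neighbouring cells. In adherens junctions, VE-cadherin (Cdh5) binds its like on the next cell and is tied to the actin skeleton through catenins. In tight junctions, claudins and occludin seal the gap and scaffold proteins such as ZO-1 (Tjp1) anchor them, while immunoglobulin-type molecules (Pecam1, Esam and the JAM proteins F11r, Jam2 and Jam3) adhere along the border and guide leukocytes that cross it. Ocln, Tjp1 and F11r are also made by epithelium, which in the lung lies next to the capillaries.

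The libraries held 34435835 to 56897822 expected counts in the Control group and 29806083 to 34702571 in the EC-TRAIL KO group, a depth at which each junction gene had at least 209 counts in every library. Levels are given as CPM, counts per 1000000 after TMM scaling of the libraries. Tnfsf10 itself was at 374, 369.5, 298, 323 and 305 CPM in Control replicates 1 to 5, and at 199, 318, 126, 169 and 80.99 CPM in EC-TRAIL KO replicates 1 to 5. The library labelled EC-TRAIL KO replicate 2 thus lay inside the Control range of Tnfsf10, against its label. It had 42 counts of Gm8748, a pseudogene near Cdh5, where the others of its group had 27 to 76 and every control had 0. Whether its label is right was not tested, and each junction gene is given with and without it. The Tnfsf10 difference in log2 was -0.90 (SE 0.276, edgeR adjusted p = 0.425) with that library and -1.21 (edgeR adjusted p = 0.0345) without it. That library was singled out by its Tnfsf10 value, so the p-value without it is no independent test of Tnfsf10. Over all genes, edgeR called 79 of 17997 (0.439%) at an adjusted p under 0.05, all higher in EC-TRAIL KO, and DESeq2 called 211 (1.17%). The median log2 fold change of all tested genes was -0.0085.

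All 14 pan-endothelial markers were detected, with a summed level of 15344 to 17736 CPM in the Control and 15491 to 17651 CPM in the EC-TRAIL KO libraries. The 14 alveolar epithelial markers were detected too, at 8975 to 13611 and 7614 to 10779 CPM, so RNA of these genes was present in the sorted pools. Marker sums were 489 to 651 and 372 to 619 CPM for 10 pericyte and smooth muscle genes, and 1088 to 1309 and 777 to 1321 CPM for 10 fibroblast genes. Those of 12 leukocyte genes were 56.2 to 76.1 and 67.4 to 80.7 CPM, and those of 9 platelet and erythroid genes 15.7 to 51.5 and 13.3 to 36.6 CPM. No marker of these lists was at 0 in every library, and the groups overlapped in each sum. The library labelled EC-TRAIL KO replicate 2 had the lowest alveolar, pericyte and fibroblast sums, and Control replicate 2 the highest alveolar sum. In such bulk samples, fewer cells of a type and less RNA per cell cannot be told apart.

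Levels of different genes were compared per kilobase of exon. Cdh5 stood highest, at 909 ± 69.6 CPM per kilobase in the Control group (SD, n = 5), rank 19 of the tested genes with an annotated exon length. Cldn5 followed at 694 ± 74.4 CPM per kilobase (rank 25) and Pecam1 at 350.4 ± 29.9 (rank 70). Tjp1 at 166 ± 11.6, Esam at 142 ± 8.95 and F11r at 68.9 ± 2.51 CPM per kilobase held ranks 206, 239 and 521. Jam2 at 31.1 ± 2.61, Ocln at 16.2 ± 0.855 and Jam3 at 2.59 ± 0.305 CPM per kilobase came last, at ranks 1407, 2977 and 9763. By the mean of all 10 libraries, which also set these ranks, the highest gene was 360-fold above the lowest. This order was the same in each of the 10 libraries, and the ranges of neighbours in it were separate except for Tjp1 and Esam, where the lowest Tjp1 value (142) was below the highest Esam value (157). The lowest Cdh5 value (835 CPM per kilobase) and the highest Cldn5 value (831) nearly touched. Some places depend on which exons count as the length: with the longest transcript only, Pecam1 was at 634 CPM per kilobase in the Control group, overlapped Cldn5 and was below it in 8 of 10 libraries, and Esam moved above Tjp1.

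**Figure D1:**
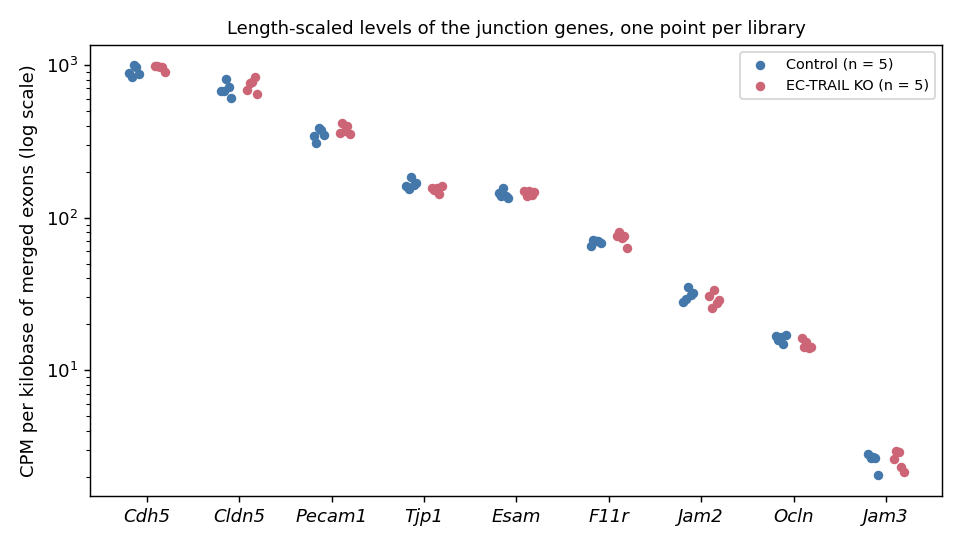
Level of each junction gene in CPM per kilobase of merged exons (log axis), with 1 point per library, for Control and EC-TRAIL KO (n = 5 each). The 9 genes keep the same order from Cdh5 to Jam3 in every library, while the points of both groups lie on top of each other within each gene.

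Cdh5 (ENSMUSG00000031871; GRCm38 chromosome 8, 104101625 to 104144511, plus strand) encodes VE-cadherin, the adhesion molecule of endothelial adherens junctions. It was at 3701, 3511, 4181, 4082 and 3636 CPM in Control replicates 1 to 5. In EC-TRAIL KO, replicates 1 to 5 were at 4124.5, 4146, 4048, 4085 and 3784 CPM. All 5 transgenic libraries lay inside the Control range and above the Control median, and 4 of them were close together with replicate 5 below them. The means were 3822 ± 292 and 4038 ± 147 CPM (SD, n = 5 each), and edgeR fitted a log2 difference of 0.08 (SE 0.0772, adjusted p = 0.997). By exact permutation, two-sided, p was 0.159, where 0.00794 is the smallest p that 5 libraries against 5 allow. The 95% interval of the difference in log2 CPM, -0.06 to 0.20, reaches from a change of -4.1% to one of 15.2%. Leaving out the library labelled EC-TRAIL KO replicate 2 gave 0.07.

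Pecam1 (ENSMUSG00000020717; chromosome 11, 106654217 to 106750628, minus strand), the adhesion molecule CD31 used as a general endothelial marker, sits along the cell border between these junctions. It was at 2116, 1924, 2384, 2342 and 2146 CPM in the Control replicates. The EC-TRAIL KO replicates were at 2213, 2605, 2284, 2483 and 2201 CPM. Replicates 2 and 4 of that group were above every control, and the other three lay among them. Its log2 fold change, 0.11 (edgeR SE 0.0848, adjusted p = 0.997), was the highest of the junction genes, with an exact permutation p of 0.167 and an interval of -0.07 to 0.28. It was 0.07 with the library labelled EC-TRAIL KO replicate 2 left out, in which Pecam1 was highest and the alveolar marker sum lowest. With the mean of the alveolar markers as a term in the fit it was 0.06.

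Cldn5 (ENSMUSG00000041378; chromosome 16, 18776847 to 18778262, plus strand) encodes claudin-5, the main claudin of endothelial tight junctions. The Control replicates were at 955, 952, 1139.9, 1013 and 852 CPM. In EC-TRAIL KO the values were at 973, 1068, 1087, 1176 and 907 CPM. Only replicate 4 of that group was above all controls, and in both groups replicate 5 was lowest. The means of 982 ± 105 and 1042 ± 104 CPM (SD, n = 5 each) gave a log2 difference of 0.09 in edgeR (SE 0.0951, adjusted p = 0.997) and an exact permutation p of 0.365. It was 0.08 with the library labelled EC-TRAIL KO replicate 2 left out, 0.04 without Control replicate 5 or EC-TRAIL KO replicate 4, 0.14 without Control replicate 3 and 0.13 without EC-TRAIL KO replicate 5. The interval of -0.15 to 0.32 was among the widest, so neither no difference nor a level up to 24.4% higher was excluded.

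Ocln (ENSMUSG00000021638; chromosome 13, 100496507 to 100552718, minus strand) encodes occludin, a membrane-spanning tight junction protein that epithelium makes as well. It was at 70.8, 67.2, 69.3, 62.6 and 71.7 CPM in the Control replicates. The EC-TRAIL KO replicates were at 68.3, 59.98, 64.9, 58.9 and 59.9 CPM. All 5 of these lay below the Control median and 3 below every control, while replicates 1 and 3 lay inside the Control range. The means of 68.3 ± 3.61 and 62.4 ± 4.06 CPM (SD, n = 5 each) gave a log2 difference of -0.13 in edgeR (SE 0.0645, adjusted p = 0.997). The exact permutation p was 0.0556 and the interval -0.26 to 0.00. The log2 difference was -0.12 with the alveolar marker term, and also with the library labelled EC-TRAIL KO replicate 2 left out. Ocln had the lowest unadjusted edgeR p of the 9 genes, 0.0663, and no junction gene was under 0.05, as 5.13% of all tested genes were.

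The DNA just before the start of these tight junction genes is shown because both span the membrane in tight junctions, while their levels per length lie far apart. RefSeq's table for GRCm38.p6 held windows for 4 of the 9 genes: F11r, Tjp1, Cldn5 and, with a pair of start sites, Ocln. The 250 bases before the start follow for Cldn5 (chr16:18776597-18776846, plus strand) and for the outer start of Ocln (chr13:100552719-100552968, minus strand), with any GGGCGG (an Sp1 motif) in capitals, which reads CCGCCC where it lies on the other strand.
Cldn5: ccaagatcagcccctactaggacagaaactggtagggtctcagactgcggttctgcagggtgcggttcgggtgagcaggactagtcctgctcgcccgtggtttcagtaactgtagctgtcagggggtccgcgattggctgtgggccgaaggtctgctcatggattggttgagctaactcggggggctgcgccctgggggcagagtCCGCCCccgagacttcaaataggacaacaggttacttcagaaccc
Ocln: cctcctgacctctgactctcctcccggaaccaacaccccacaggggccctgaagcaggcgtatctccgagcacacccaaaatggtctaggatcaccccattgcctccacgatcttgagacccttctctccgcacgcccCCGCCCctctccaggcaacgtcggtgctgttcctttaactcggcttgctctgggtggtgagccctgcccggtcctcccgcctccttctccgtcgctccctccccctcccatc
The match lies 45 bases before the start in Cldn5 and 112 bases before it in this Ocln window. GGGCGG was found on either strand in 5 of 5 windows of these genes and in 33.0% of the 32544 windows of the same length in the table. The ETS-type letters CCGGAAG (6.95% of all windows) and CAGGAAG (10.8%), the TATA box letters TATAAA (12.3%) and the GATA-type letters AGATAA (9.97%) were in 0 of these 5. Both strands were searched for each motif, CCGGAAG and CAGGAAG share their last letters, and a match describes the letters only.

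Tjp1 (ENSMUSG00000030516; chromosome 7, 65296165 to 65527781, minus strand) encodes ZO-1, the scaffold that links claudins, occludin and JAM proteins to actin. It was at 1258, 1208, 1449, 1276 and 1308 CPM in the Control replicates. EC-TRAIL KO replicates 1 to 5 were at 1218, 1181, 1227, 1113 and 1258 CPM. All 5 lay below the Control median of 1276 CPM and 2 below every control, while Control replicate 3 stood above the rest. The means of 1299.8 ± 90.8 and 1199.5 ± 55.6 CPM (SD, n = 5 each) gave a log2 difference of -0.12 in edgeR (SE 0.0718, adjusted p = 0.997). The exact permutation p was 0.0556 and the interval -0.24 to 0.00, which reaches down to a change of -15.4%. The log2 difference was -0.11 with the library labelled EC-TRAIL KO replicate 2 left out and -0.13 with the alveolar marker term.

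Esam (ENSMUSG00000001946; chromosome 9, 37528078 to 37538319, plus strand) encodes an adhesion molecule of endothelial tight junctions that is also found on platelets. It was at 414, 397, 450.0, 395 and 385 CPM in the Control replicates. The EC-TRAIL KO replicates, at 426, 399, 429.9, 405 and 420.4 CPM, all lay inside the Control range. The log2 fold change was 0.03 (edgeR SE 0.0638, adjusted p = 0.997), or 0.04 with the library labelled EC-TRAIL KO replicate 2 left out. It had the narrowest interval of the 9 genes, -0.07 to 0.12, and an exact permutation p of 0.532.

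F11r (ENSMUSG00000038235; chromosome 1, 171437535 to 171464603, plus strand) encodes JAM-A, which epithelium and leukocytes also carry. It was at 173, 190.0, 187, 187 and 180.3 CPM in the Control replicates. In EC-TRAIL KO it was at 200.4, 214, 195, 202 and 168 CPM. Of these, 4 were above every control and replicate 5 was below every control. In edgeR the log2 fold change was 0.09 (SE 0.0705, adjusted p = 0.997), the exact permutation p 0.198 and the interval -0.06 to 0.21. It was 0.06 with the library labelled EC-TRAIL KO replicate 2 left out, in which F11r was highest. The Control libraries varied little, with a coefficient of variation of 3.64%, against 8.66% in EC-TRAIL KO.

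Jam2 (ENSMUSG00000053062; chromosome 16, 84774123 to 84825928, plus strand) encodes JAM-B, and Jam3 (ENSMUSG00000031990; chromosome 9, 27097384 to 27155421, minus strand) encodes JAM-C, its binding partner. Jam2 was at 170.2, 178, 211, 187 and 195 CPM in the Control replicates and at 185, 156, 202, 167 and 176 CPM in the EC-TRAIL KO replicates. Only replicates 2 and 4 of the latter were below every control. Its log2 fold change was -0.09 (edgeR SE 0.0836, adjusted p = 0.997), with an exact permutation p of 0.302 and an interval of -0.29 to 0.11. It was -0.05 with the library labelled EC-TRAIL KO replicate 2 left out, in which Jam2 was lowest of the 10. Jam3 was at 9.12, 8.58, 8.61, 8.57 and 6.60 CPM in the Control and at 8.46, 9.55, 9.31, 7.45 and 6.94 CPM in the EC-TRAIL KO replicates. Its replicate 5 was lowest in each group, and the groups covered each other almost fully. Its log2 fold change, 0.0068 (edgeR SE 0.123, adjusted p = 0.997, exact permutation p = 0.968), turned to -0.05 with the library labelled EC-TRAIL KO replicate 2 left out and had the interval -0.30 to 0.32. That interval runs from a change of -18.6% to one of 24.9%, and Jam3 had 209 to 505 counts per library.

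**Figure D2:**
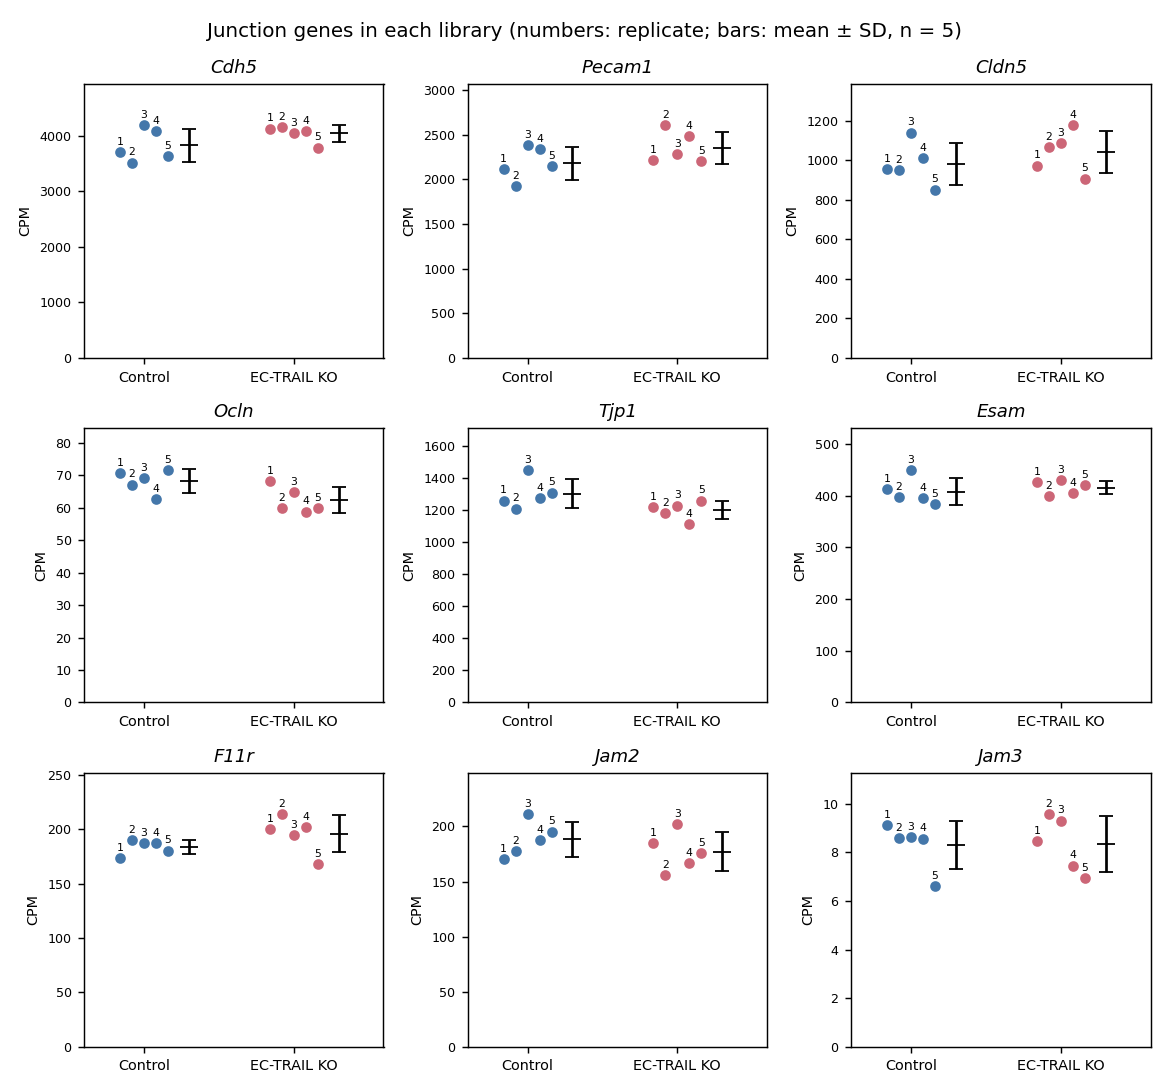
CPM of each junction gene in each library, with points numbered by replicate and bars showing mean ± SD (n = 5 per group), on linear axes that start at 0. The groups overlap in all 9 panels. In Ocln and Tjp1 all 5 EC-TRAIL KO points lie below the Control median, some of them inside the Control range. In F11r 4 of 5 lie above every control and 1 below every control.

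Of the 9 genes, 6 had a log2 fold change above 0 and 3 below, with a median of 0.03, and 0 passed the adjusted threshold in edgeR or in DESeq2. At an unadjusted p under 0.05 the count was also 0 with either tool. No junction gene had all EC-TRAIL KO libraries above all controls, as 1.38% of tested genes had, or below them, as 0.261% had. The positive values belonged to Cdh5, Pecam1, Cldn5, Esam, F11r and Jam3, and the negative ones to Ocln, Tjp1 and Jam2. Leaving out the library labelled EC-TRAIL KO replicate 2 kept each sign except that of Jam3, and left 0.126 (Ocln) as the lowest unadjusted edgeR p.

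**Figure D3:**
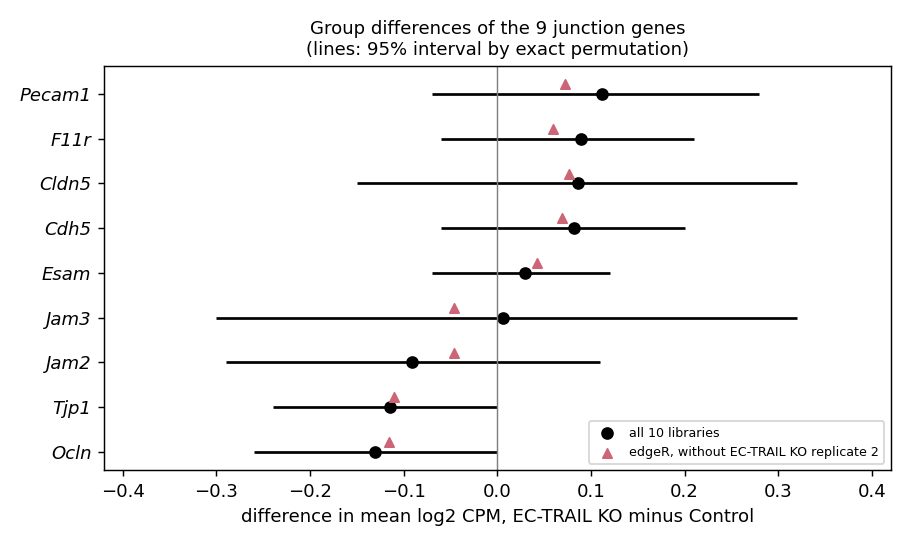
Difference in mean log2 CPM, EC-TRAIL KO minus Control, for each junction gene (black points, 10 libraries) with its 95% interval by exact permutation, and the edgeR log2 fold change with the library labelled EC-TRAIL KO replicate 2 left out (triangles). The intervals of Ocln and Tjp1 end at 0.00, and the others cross it.

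Ratios within a library do not depend on the scaling between libraries. Per length, the log2 ratio of Tjp1 to Cdh5 was -2.57 to -2.37 in the Control libraries and -2.77 to -2.48 in the EC-TRAIL KO libraries, where 4 of 5 ratios were below every control. Jam2 relative to Cdh5 was below every control in 3 of 5 and Ocln in 2 of 5 of those libraries. Pecam1 relative to Cdh5 was above every control in 2 of 5 and below every control in 1. A share over all tested genes was not computed for such partial separation. Of the 36 ratios between junction genes, 1 separated the groups, that of Tjp1 to Esam. It was chosen after its values were seen: the log2 ratio of their CPM was 1.605 to 1.77 in the Control libraries, and 1.46 to 1.58 in the EC-TRAIL KO libraries. The background is a share of 1.67% of the 161964 ratios between a junction gene and another tested gene, and 1 of 36 is near it.

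The proteins that work with these genes were read from the same fit. Of 56 partners, 54 matched a row and all 54 were tested (Cldn25 and Igsf5 were not matched). None passed, 25 had a log2 fold change above 0 and 29 below, the median was -0.0066, and 3 were under an unadjusted edgeR p of 0.05 (5 in DESeq2). In edgeR, 3 of 54 is near the share over all tested genes, 5.13%. In DESeq2, 5 of 54 is above that share, 5.65%, and this difference was not tested. Among 15 adherens junction partners the median was -0.0072. The catenins that tie VE-cadherin to actin overlapped between groups: Ctnnb1 (beta-catenin) was at 654 ± 37.4 and 689 ± 49.7 CPM, and Ctnna1 (alpha-catenin) at 962 ± 75.1 and 942 ± 57.8 CPM (SD, n = 5 each), with adjusted edgeR p of 0.997 for both. The median was -0.03 for 15 tight junction partners, 0.02 for 20 other contact proteins and 0.01 for 4 gap junction proteins.

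The 4 partners with the lowest p were those named by rule, and none passed. Mcam, the endothelial adhesion molecule CD146, was at 492 ± 46.5 CPM in Control and 602 ± 85.2 CPM in EC-TRAIL KO (SD, n = 5 each), or 0.29 as log2 (SE 0.101, edgeR adjusted p = 0.630). Clec14a, a lectin-like receptor of endothelium, was at 928 ± 63.5 and 785 ± 99.7 CPM, with a log2 fold change of -0.24 in edgeR (adjusted p = 0.780). Cxadr, a junction protein of the JAM type that epithelium makes, was at 52.8 ± 7.65 and 41.9 ± 8.03 CPM, with a log2 fold change of -0.33 in edgeR (adjusted p = 0.879). Cd47, a receptor that binds thrombospondin, had a log2 fold change of -0.18 in edgeR (adjusted p = 0.997). The groups overlapped in all 4.

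Junction genes of epithelium were read beside Ocln, Tjp1 and F11r. Of 16 such genes 15 were tested, 13 had a log2 fold change below 0, the median was -0.16, and 0 passed. Over all tested genes, 9465 of 17997 were below 0. Their summed level was 723 to 869 CPM in the Control and 498 to 917 CPM in the EC-TRAIL KO libraries, with the library labelled EC-TRAIL KO replicate 2 lowest. The 4 with the lowest p were Epcam (-0.22), Pkp2 (-0.25), Dsg2 (-0.30) and Marveld2 (-0.14), each with an edgeR adjusted p of 0.997. With the alveolar marker term in the fit, Epcam was at -0.12, Pkp2 at -0.12 and Dsg2 at -0.14, and with the library labelled EC-TRAIL KO replicate 2 left out Epcam was at -0.15 and Pkp2 at -0.14. Leaving out Control replicate 2 put Epcam at -0.15 and Dsg2 at -0.14. The 14 alveolar epithelial markers had a median of -0.13, with 13 below 0, and the 14 pan-endothelial markers a median of -0.02. Low medians were not particular to epithelial lists. The median was -0.16 for fibroblast markers (9 of 10 below 0) and -0.27 for platelet and erythroid markers (7 of 8 tested below 0). It was -0.095 for pericyte and smooth muscle markers and 0.07 for leukocyte markers. The part of epithelial RNA in the Ocln, Tjp1 and F11r values was not tested. In the fit with the alveolar term, Ocln was at -0.12, Tjp1 at -0.13 and F11r at 0.08.

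**Figure D4:**
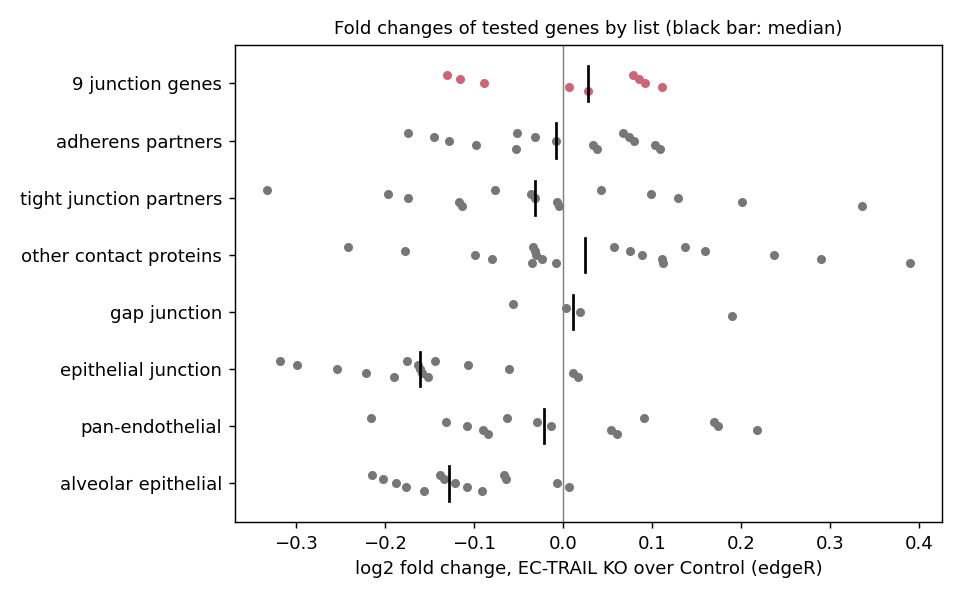
Log2 fold change (edgeR, EC-TRAIL KO over Control) of each tested gene, grouped by list, with a black bar at the median of each list. The 9 junction genes lie between -0.13 and 0.11 around a median of 0.03, and of the 8 lists drawn, the medians of the epithelial junction (-0.16) and alveolar (-0.13) lists lie furthest left. Of the lists not drawn, the fibroblast (-0.16) and platelet and erythroid (-0.27) medians lie as far left or further.

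The 2 most abundant genes of each marker list were named by rule, and none passed. Of the endothelial markers, Vwf (von Willebrand factor) had a log2 fold change of -0.01 and Calcrl, a receptor for adrenomedullin, of -0.13. The surfactant genes were at 3638 to 6171 CPM in Control and 3243 to 4440 CPM in EC-TRAIL KO for Sftpc, and at 1169 to 1687 and 1084 to 1553 CPM for Sftpb. Log2 fold changes were -0.34 and -0.24 for the pericyte and smooth muscle genes Gucy1a1 and Pdgfrb, and -0.23 and -0.15 for the fibroblast genes Fmo2 and Pdgfra. With the library labelled EC-TRAIL KO replicate 2 left out, Fmo2 was at -0.11, Pdgfra at -0.0061 and the macrophage gene Mrc1 at 0.37. Leaving out EC-TRAIL KO replicate 1 put Pdgfrb at -0.14 and Pdgfra at -0.065. With all libraries they were -0.07 and 0.61 for the myeloid genes Csf1r and Mrc1, and -0.19 and -0.65 for the platelet genes Itga2b and Ppbp, with edgeR adjusted p of 0.550 or higher throughout.

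How the junction genes varied between libraries of the same group was described with the group means removed. Of the 36 pairs, 26 had a Pearson r above 0 over the 10 libraries, with a median of 0.319. The highest were Cdh5 with Pecam1 (0.811), Tjp1 with Esam (0.727) and Cdh5 with Cldn5 (0.721), and the lowest was Ocln with Pecam1 (-0.416). These points share their library, its depth and its scaling. The alveolar marker mean was related to each gene in 9 comparisons: Pecam1 had a Pearson r of -0.724 (permutation p = 0.0232, Benjamini-Hochberg 0.177) and a Spearman rho of -0.733 (permutation p = 0.0286, adjusted 0.129). Cdh5 had an r of -0.617 (permutation p = 0.0393, adjusted 0.177) and a rho of -0.758 (permutation p = 0.0213, adjusted 0.129). Neither passed the adjustment. The farthest in alveolar level were replicate 2 of the Control group and that labelled EC-TRAIL KO replicate 2, and without both r was -0.409 for Pecam1 and -0.565 for Cdh5. Ocln had an r of 0.157 (permutation p = 0.713).

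The genes most like each junction gene were ranked by the same group-centred Pearson r over 10 libraries among 9207 candidates, as a description with no test. Other junction genes and predicted genes (Gm and Rik names) were left out. The highest of so many r values over 10 libraries can be high by chance. For Cdh5 they were Ppp2r5c (0.914), Tubb2a (0.894) and Slc15a3 (0.879), and for Pecam1 they were Thap12 (0.972), Ptprg (0.963) and Wwtr1 (0.960). Cldn5 was followed by Psme2 (0.949), Nufip1 (0.938) and Kcnk5 (0.928), and Ocln by Ifit1 (0.972), Endod1 (0.959) and Bclaf3 (0.928). Tjp1 varied most like Aggf1 (0.957), Cav1 (0.923) and Dst (0.913), and Esam like Mad2l1bp (0.902), Pqbp1 (0.887) and Dhdh (0.878). The nearest genes were Pmpcb (0.957), Mest (0.956) and Ift122 (0.926) for F11r, and Cpeb3 (0.950), Ginm1 (0.921) and Ntrk2 (0.905) for Jam2. For Jam3 they were Adprhl2 (0.950), Sgsh (0.949) and Colgalt2 (0.947).

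The Cdh5 locus was read further because the Cre is under the Cdh5 promoter. Of the 9 annotated genes within 100 kb of Cdh5 on chromosome 8, Gm8748, a processed pseudogene (ENSMUSG00000110019, 104071149 to 104071735, plus strand) 29.9 kb before the Cdh5 start, passed the test. It had 0 counts in each of the 5 Control libraries and 76, 42, 30, 27 and 39 counts in EC-TRAIL KO replicates 1 to 5. Taking 3 counts as the floor for the 5 controls together, this is at least 104.5-fold higher (edgeR adjusted p = 0.0115, exact permutation p = 0.00794, the smallest possible). With no counts in the controls, the gene entered the test only through the EC-TRAIL KO libraries, so these p-values are no support beyond the counts themselves, and a filter at a mean CPM of 1 left it untested. The call was kept at an edgeR adjusted p of 0.0148 with the library labelled EC-TRAIL KO replicate 2 left out, and lost at 0.0691 with the alveolar marker term, where the fitted difference was of like size.

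Gm29682 (ENSMUSG00000110053, 104088916 to 104105873, minus strand) is antisense to Cdh5 and overlaps its first part. It had 3, 2, 2, 1 and 0 counts in the Control and 17, 5, 9, 12 and 3 counts in the EC-TRAIL KO replicates, too few for the test. In CPM every EC-TRAIL KO library was above every control. The share of tested genes with this pattern, 1.38%, does not cover genes with so few counts. In counts the groups touched, with 3 in both Control replicate 1 and EC-TRAIL KO replicate 5, so the separation depends on the scaling. Reads of Cdh5 and of this antisense gene cannot be told apart with certainty, since the kit marks strand but the strand setting of the counting is not given in the sources used here. Beyond the Cdh5 end, Gm45663 (log2 fold change -0.11, edgeR adjusted p = 0.997), Bean1 (0.79, adjusted p = 0.919) and Tk2, a mitochondrial thymidine kinase (-0.23, adjusted p = 0.819), did not pass. Gm45887 had 5 to 22 counts per library and was not tested, and Gm10631, Gm45892 and Gm45750 had under 10 counts in every library. Cdh5, between these neighbours, differed by a log2 of 0.08.

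**Figure D5:**
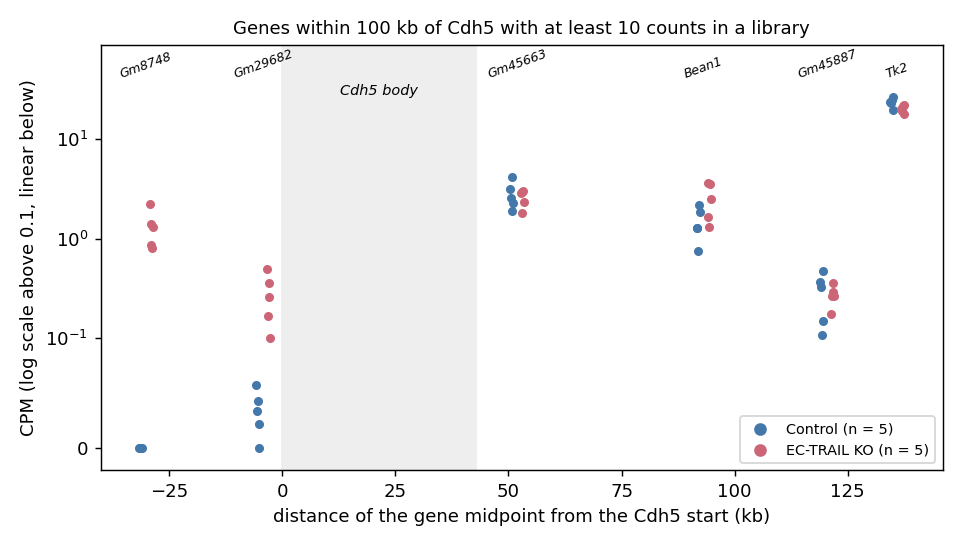
CPM in each library (log scale above 0.1, linear below) of the genes within 100 kb of Cdh5 that reached 10 counts, against the distance of the gene's midpoint from the Cdh5 start in kilobases, with the Cdh5 body shaded. Gm8748 and Gm29682, on the start side, have all 5 EC-TRAIL KO libraries above all 5 controls, and the 4 genes beyond the Cdh5 end overlap between groups. Such a separation is seen in 1.38% of tested genes, which do not include Gm29682. For Gm29682 it depends on the scaling of libraries with 3 counts in each group.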

How the data were processed

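Per the submitters' processing notes, the authors used STAR 2.7.1a, RSEM 1.2.28 and the build GRCm38, and deposited expected counts per gene without normalization, of which 81.2% were whole numbers. The annotation release and how strand was counted: not given in the sources used here. Of 55385 identifiers, 55144 matched GENCODE's GRCm38 annotation without their version, which gave symbols, positions and exon lengths, and 241 did not. Expected counts were rounded and tested in R 4.3.3 with edgeR 4.0.16 (filterByExpr with a minimum count of 10, TMM scaling, quasi-likelihood F-test, with no covariate). P-values were Benjamini-Hochberg adjusted over the 17997 genes tested, with 37388 removed and a threshold of 0.05. The test was also run on simulated data, and that outcome is not reported here. Standard errors were taken from the size of the change and F. Log2 CPM used a prior count of 2. Single genes were also tested by exact permutation, and the intervals invert that test. DESeq2 1.42.0, limma 3.58.1 (voom), another scaling, other filters, a replicate block, an alveolar marker term and leaving out each library served as alternatives. Every pair of libraries differed by a chi-square of at least 25 per degree of freedom, so none was a copy of another. The junction genes, the 11 other lists, the rules and the alternatives were chosen with earlier results of these data known. Named were all 9 junction genes, Tnfsf10, the 4 partners and 4 epithelial junction genes of lowest p, neighbours of Cdh5 with 10 counts in a library, the 3 genes most like each junction gene at a mean of at least 10 CPM, and the 2 most abundant genes of each marker list. Ctnnb1 and Ctnna1 were named in addition, after their values were seen.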

Additional observations from a re-analysis of the deposited data

Results flagged for a closer look

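Within each group of 5 libraries, the gap of the highest or lowest library to the next was set against the whole range for 34 named genes, 68 gene and group combinations in all. In 8 of them 1 library stood apart by more than Dixon's critical share of 0.71, which chance gives about 1 time in 20. Among the junction genes, Cdh5 was at 3784 CPM in EC-TRAIL KO replicate 5, where the other four of that group were at 4048 to 4146 CPM. Jam3 was at 6.60 CPM in Control replicate 5, against 8.57 to 9.12 CPM in the other controls. Among the partners, Mcam was at 573 CPM in Control replicate 1, where the others were at 457 to 483 CPM.

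Control replicate 2 was high in epithelial genes, with Epcam at 20.5 CPM (others 15.8 to 17.1) and Sftpb at 1687 CPM (others 1169 to 1242). The library labelled EC-TRAIL KO replicate 2 was low in Sftpc at 3243 CPM (others 4161 to 4440). Platelet genes stood apart in the fourth replicates, with Ppbp at 19.1 CPM in Control replicate 4 (others 2.95 to 4.47) and Itga2b at 13.9 CPM in EC-TRAIL KO replicate 4 (others 4.91 to 7.33).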

How the results depend on the processing

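Over 18 alternatives, 0 junction genes, 0 partners and 0 epithelial junction genes passed in any, and the lowest adjusted p of a junction gene was 0.525. Of 162 junction gene values, 156 kept their sign, and the 6 that turned were all of Jam3: -0.0069 without the low-count filter, -0.0075 with limma-voom, -0.055 with the alveolar marker term, and 3 with a library left out (range -0.064 to 0.066). The count of all genes called, 79 in the fit used, was 2 with library sizes only, 143 without the filter, 211 with DESeq2, 2 with limma-voom, 1 with the alveolar term, and 2 to 155 with a library left out. The cause was not tested. With a replicate block it was 149 genes, and Ocln had an unadjusted p of 0.0377 (edgeR, adjusted 0.525). Same-numbered libraries correlated at 0.342, 0.0849, 0.260, 0.521 and 0.152 for replicates 1 to 5, and 4 of 5 matched their own number best, a hint of pairing in the data. The labels give no shared animal, litter or day and replicate 2 was under the 0.1 asked of every pair, so the fit used has no block. The exact permutation tests and their intervals also leave any pairing out. Under the alveolar term the log2 fold change turned to 0.0085 for Vwf, 0.047 for Sftpc, 0.098 for Sftpb and 0.043 for Csf1r. With a library left out it ranged from -0.055 to 0.040 for Vwf, -0.17 to 0.048 for Sftpc, -0.078 to 0.10 for Sftpb, -0.15 to 0.037 for Csf1r, -0.50 to 0.095 for Itga2b, -1.03 to 0.19 for Ppbp and -0.23 to 0.072 for Gm45663. Over the 18 alternatives the log2 fold change ran from 0.05 to 0.11 for Cdh5, 0.065 to 0.14 for Pecam1, 0.038 to 0.14 for Cldn5, -0.16 to -0.11 for Ocln, -0.14 to -0.076 for Tjp1, 0.0070 to 0.063 for Esam, 0.060 to 0.14 for F11r and -0.14 to -0.047 for Jam2. It ran from -0.25 to -0.0061 for Pdgfra, -0.36 to -0.11 for Fmo2, -0.34 to -0.14 for Pdgfrb, -0.23 to -0.013 for Calcrl, 0.37 to 0.72 for Mrc1 and -0.40 to -0.22 for Cxadr. The filter at a mean CPM of 1 left Gm8748 untested.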
